A study of Homo sapiens with 2 samples.

Results

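The genes of the DNA replication machinery were measured in HSC-3 cells grown on plastic and on Myogel. The set held 43 genes for the parts of the replication fork, the steps that prepare origins, the supply of nucleotides and 2 factors that act behind the fork, MSH6 and UHRF1. A gene was taken as measured when the array had a probe set, a group of short probes for 1 transcript, annotated with that gene symbol alone. All 43 genes were measured, out of 19775 on the array, by 81 probe sets in total. The probe set with the highest mean of the log2 values stood for its gene, and further probe sets served as a check. HSC-3 is an established line of aggressive squamous carcinoma cells from the human tongue, and the cells carried a red fluorescent protein from a lentivirus with a non-coding control sequence, selected with puromycin. On plastic the wells were uncoated, while the other wells were coated with Myogel, a protein extract of human uterine leiomyoma tissue. RNA was taken on the day after seeding and pooled in equal amounts from 3 wells of each surface. From 1 µg of pooled RNA labelled cRNA was made, and 1 array was hybridised per surface. The comparison thus rested on 1 array per surface, without replicates, so no p-value, SD or SE could be given. The titles of the samples assigned the surfaces, although a protocol text common to both samples names uncoated wells.

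DNA replication starts when the origin recognition complex, CDC6 and CDT1 load the MCM helicase on DNA in G1 phase, a step called licensing. In S phase CDC45 and the GINS complex bind the loaded helicase and activate it, and the primase and polymerases follow behind the unwound fork. PCNA is the ring that holds the polymerases on DNA, the RFC complex loads it, and RPA covers the single strands. Many of these genes are transcribed by E2F factors when cells enter S phase, and some of their proteins, such as PCNA and MCM2, are stained as markers of proliferation in carcinomas.

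The promoters of the replication genes often carried a match to the E2F motif. Promoter sequences, 250 bases before and 50 bases from the start of transcription on, came from RefSeq (GRCh38.p14) and were found for 37 of the 43 genes, with 51 starts in all. The motif was searched on both strands as TTTCGCGC, TTTGGCGC, TTTCCCGC or TTTGCCGC, and matches on opposite strands may overlap. Of the 37 genes, 20 held at least 1 match (54.1%), against 5.4% of 15843 protein-coding genes and 3.99% of all genes with a promoter in the table. The CCAAT box (CCAAT, either strand) was present in 24 of the 37 (64.9%), against 42.1% of protein-coding genes, and the GC box (GGGCGG, either strand) in 28 (75.7%), against 64.3%. These matches describe the sequence, and binding was not measured. The stretches of 6 genes are shown because they bring together a subunit of the helicase, both licensing regulators, a polymerase subunit, the clamp and a subunit of its loader. The capitals mark the E2F matches, and the stretches run 5′ to 3′ along the gene.
MCM6, 160 to 61 bases before the start, chr2:135876504-135876603, minus strand: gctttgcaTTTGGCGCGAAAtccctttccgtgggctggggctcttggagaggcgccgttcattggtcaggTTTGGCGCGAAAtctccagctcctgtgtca
CDT1, 100 to 1 bases before the start, chr16:88803689-88803788, plus strand: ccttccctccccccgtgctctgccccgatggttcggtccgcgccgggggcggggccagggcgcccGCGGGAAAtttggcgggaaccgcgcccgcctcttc
GMNN, 100 to 1 bases before the start, chr6:24775313-24775412, plus strand: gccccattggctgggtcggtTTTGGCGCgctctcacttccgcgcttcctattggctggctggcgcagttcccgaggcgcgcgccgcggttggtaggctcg
POLA2, 100 to 1 bases before the start, chr11:65261862-65261961, plus strand: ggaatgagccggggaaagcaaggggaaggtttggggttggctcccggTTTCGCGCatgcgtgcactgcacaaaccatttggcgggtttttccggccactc
PCNA, 100 to 1 bases before the start, chr20:5126623-5126722, minus strand: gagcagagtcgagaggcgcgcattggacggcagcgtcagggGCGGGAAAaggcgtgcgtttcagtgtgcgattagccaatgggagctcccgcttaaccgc
RFC3, 100 to 1 bases before the start, chr13:33818049-33818148, plus strand: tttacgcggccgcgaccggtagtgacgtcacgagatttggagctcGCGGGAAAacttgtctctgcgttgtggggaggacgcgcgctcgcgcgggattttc
In MCM6 each run of capitals holds 2 overlapping matches, 1 on each strand. The other 5 stretches hold 1 match each, and for GMNN and PCNA the stretch belongs to 1 of 2 starts.

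Over all 20 genes there were 27 matches, of which 22 began before the start and 15 of these within the last 100 bases. The genes with a match were MCM2, MCM3, MCM6, MCM7, CDC6, CDT1, GMNN, GINS1, GINS2, GINS3, POLA1, POLA2, POLE, POLE2, PCNA, RFC3, LIG1, TYMS, MSH6 and UHRF1. The median log2 fold change (FC) of Myogel over plastic was -0.02 in these 20 genes and 0.01 in the 17 genes whose promoters held no such letters.

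**Figure D1:**
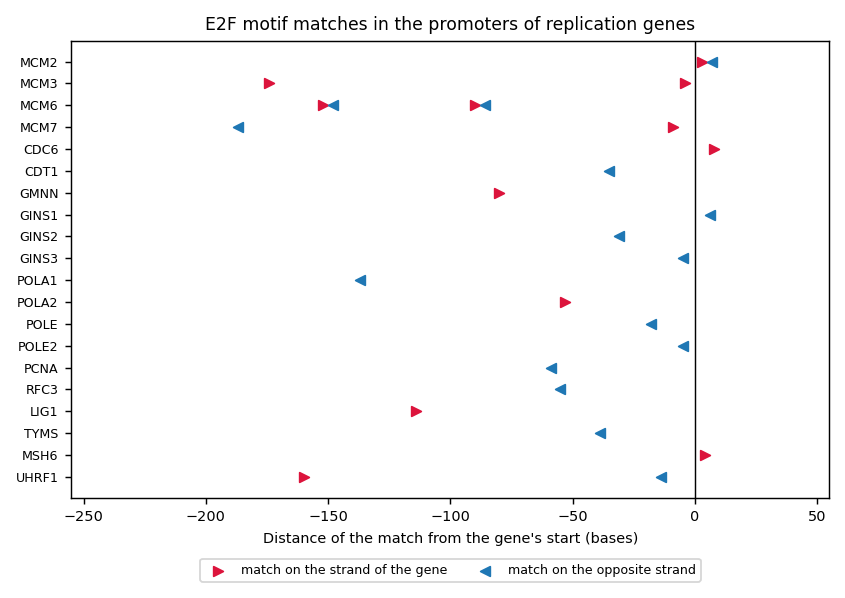
Position of the E2F motif matches in the promoters of 20 replication genes. The x axis gives the distance in bases from the start of transcription, triangles the strand of each match, and most matches (15 of 27) begin in the 100 bases before the start.

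The replication genes had nearly the same values on both surfaces. FC was the Myogel value over the plastic value of the deposited linear intensities, and FC 1.5 or more in either direction was the threshold, as in the methods of the study. By this threshold 0 of the 43 genes had a higher value on Myogel and 0 a lower one. Over all 19775 genes the shares were 9.71% for higher and 17.5% for lower values, and most of them lay below the signal of the replication genes. The split depended on the scaling, with 1921 genes higher and 3469 lower as deposited, 2606 and 2563 after quantile normalization and 2634 and 2540 after loess centring. The paper reports far fewer genes at this FC, and any further filter in its call is not stated there. Among the 9555 genes with a signal at or above that of the dimmest replication gene, POLE, at 163 linear units, 0.9% were higher and 1.48% were lower (86 and 141 genes). A count of 0 in 43 therefore lay close to this background. The log2 FCs of the 43 genes ran from -0.34 to 0.34 with a median of 0.01, 22 above and 21 below 0. The median was -0.03 over the 9555 genes and -0.07 over all genes. The median size of the log2 FC, regardless of sign, was 0.09 in the replication genes and 0.13 in the 9555 genes.

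With FC 1.2 or more, 3 replication genes were higher and 2 were lower on Myogel, while 8.77% and 12.9% of the 9555 genes were. The higher genes were FEN1, PRIM2 and CDT1, and the lower ones were POLA1 and POLE. As a measure of the spread at like signal, the range that held 95% of the log2 FCs of the 1000 probe sets nearest in signal was computed for each gene. No replication gene lay outside this range, against 2.79% of the 9555 genes. The genes came nearest to it in FEN1, where the log2 FC was 0.34 and the range -0.43 to 0.42, and in UHRF1, with 0.24 and a range of -0.37 to 0.34. In bulk RNA fewer cells in S phase and less RNA per cell cannot be told apart.

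**Figure D2:**
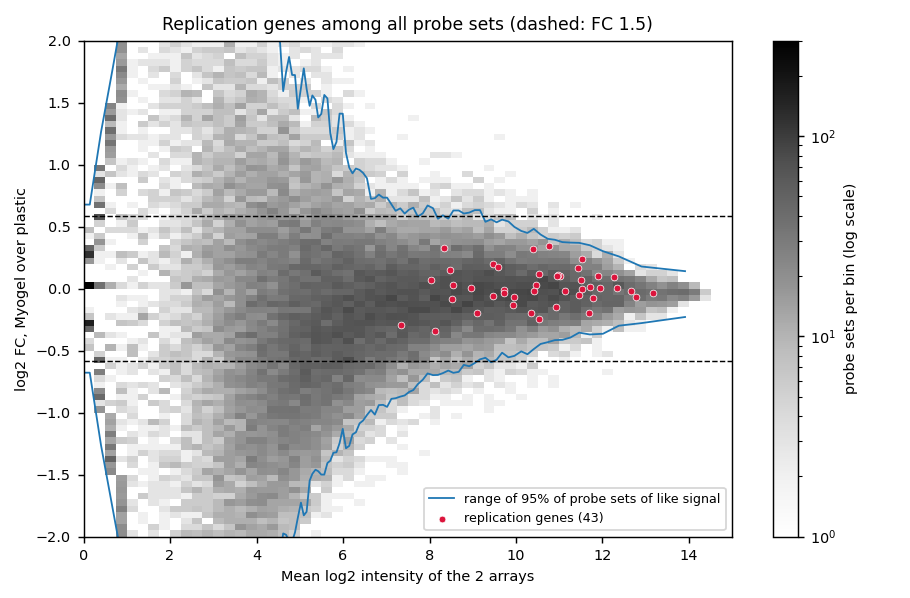
Difference between the surfaces as log2 FC (y axis) against the mean log2 intensity of the arrays (x axis), with grey shade for the number of probe sets that are not controls. Red points are the 43 replication genes, blue lines the range of 95% of the probe sets of like signal and dashed lines FC 1.5, and all red points lie between both.

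The 6 subunits of the MCM helicase, the ring that unwinds DNA at the fork, had log2 FCs from -0.05 to 0.11 in their brightest probe sets. MCM2 had 1994 on plastic and 2141 on Myogel, MCM3 had 3352 and 3382, and MCM4 had 3943 and 3963. MCM5 was measured at 1386 and 1416, MCM6 at 2845 and 2749, and MCM7 at 1937 and 2088. The largest difference among these values was thus 7.8%, in MCM7. Dimmer probe sets with a signal at or above 163 had log2 FCs of -0.16, 0.31 and -0.02 in MCM4. Those of MCM5 and MCM7 gave -0.20 and -0.14, opposite in sign to the brightest. The brightness of a probe set depends on its probes as well as on the transcript, so the genes are not ranked by their values here.

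Genes for licensing had a median log2 FC of 0.07 in their brightest probe sets, and the sign of this median depended on that choice, with -0.06 in the 3 genes left without probe sets ending in _x_at, _s_at or _a_at and -0.29 in the 3 genes with a second brightest probe set. CDT1, which brings the helicase to origins, had 289 on plastic and 363 on Myogel, the highest log2 FC of this group at 0.33, with a range of -0.68 to 0.56 at its signal. GMNN, the geminin that inhibits CDT1, had 3588 on plastic and 3399 on Myogel, the lowest of the group at -0.08. CDC6, the loader that works with CDT1, had 725 and 820.3. Of the origin recognition subunits, ORC1 had 366 on plastic and 375 on Myogel, ORC2 had 722 and 694, and ORC6 had 1413 and 1529. The inhibitor and the loading factors thus stayed below FC 1.5 in their brightest probe sets. For CDT1 and CDC6 a second probe set went the other way, with 109 and 89.6 in CDT1 and 701 and 566 in CDC6.

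Factors that activate the loaded helicase had a median log2 FC of 0.00. CDC45, the partner of the MCM ring in the active helicase, had 1912 on plastic and 2049.7 on Myogel. The GINS subunits complete that helicase, and GINS1 was almost equal with 2962 and 2955. GINS2 had 851 and 832, and GINS4 had 255 and 268. GINS3 was the lowest of this group at a log2 FC of -0.20, with 587 on plastic and 512 on Myogel, and its second probe set also was lower, with 463 and 425. MCM10, which helps the helicase to start, gave 494 and 496, and the log2 FCs of its 2 dimmer probe sets were 0.06 and 0.19.

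**Figure D3:**
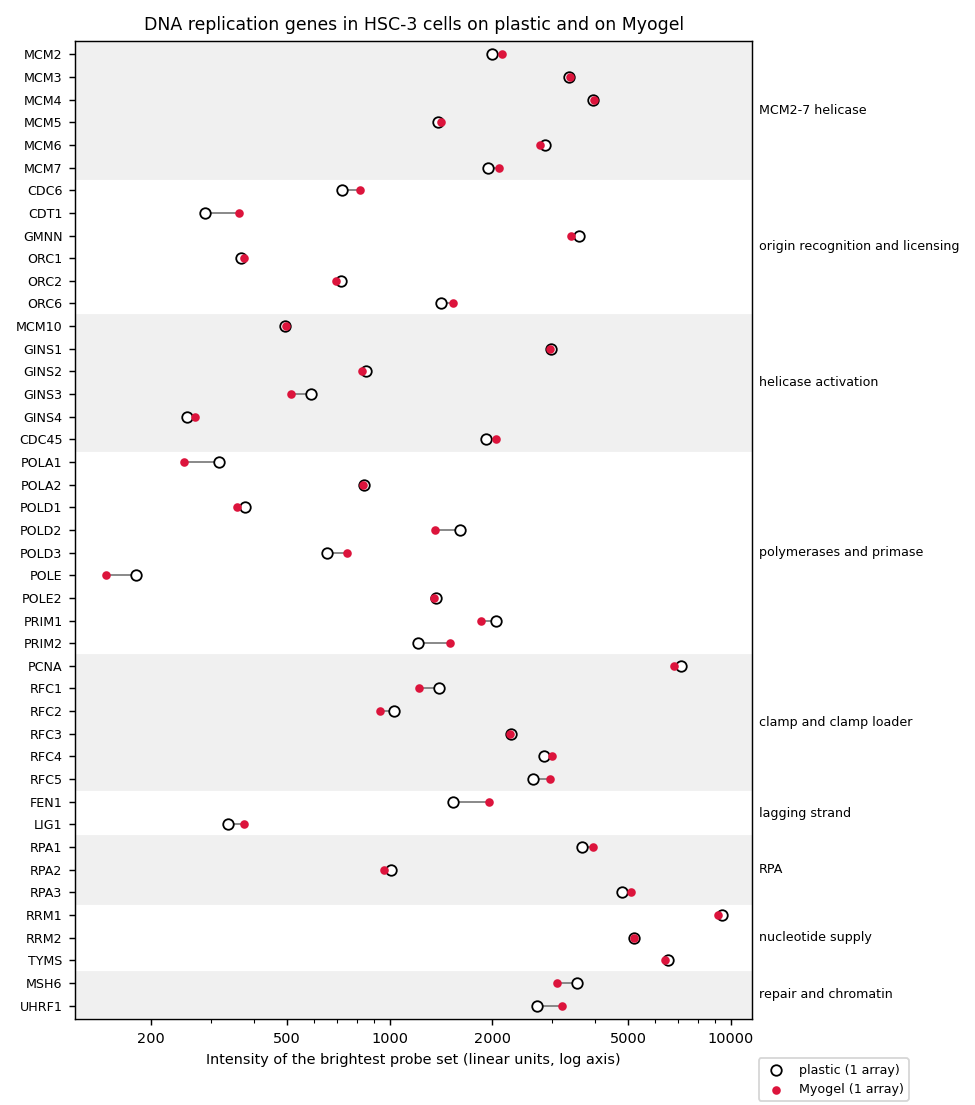
Intensity of the brightest probe set (x axis, linear units on a log axis) of each of the 43 replication genes on plastic (open circles) and on Myogel (red points), 1 array each, grouped by complex. The paired points lie close together in every complex, and the widest gaps, in FEN1, POLA1, CDT1, PRIM2 and POLE, are below FC 1.5.

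Among the polymerases and the primase, 7 of 9 genes were below 0 and the median log2 FC was -0.08, which became 0.02 when the median log2 FC of all probe sets was set to 0. POLA1, the catalytic subunit of polymerase alpha that extends primers, had the lowest log2 FC of all 43 genes, -0.34, with 316 on plastic and 249.6 on Myogel. Its range at that signal was -0.70 to 0.61. POLA2, the accessory subunit, had 843 and 835. PRIM1, the subunit of primase that makes the RNA primer, had 2055 and 1857. Its large partner PRIM2 had 1208 on plastic and 1505 on Myogel, a log2 FC of 0.32. The subunits of this single complex, polymerase alpha with primase, therefore had log2 FCs on both sides of 0, each inside the range for its signal.

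Polymerase delta copies mainly the lagging strand. POLD1, its catalytic subunit, had 378 on plastic and 356 on Myogel, POLD2 had 1612 and 1361, and POLD3 had 657 and 752. POLE, the catalytic subunit of the leading strand polymerase epsilon, had 181 and 147, a log2 FC of -0.30 within a range of -0.88 to 0.67. POLE2, its partner, had 1367 on plastic and 1349.8 on Myogel. Both polymerases thus held members within FC 1.5, with POLD3 the single one of these that was above 0.

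The clamp PCNA had 7152 on plastic and 6826 on Myogel, with a log2 FC of -0.07. The clamp loader subunits gave 1396 and 1220.4 in RFC1, 1027 and 935 in RFC2, and 2273 and 2249 in RFC3. RFC4 was measured at 2842 and 2986 and RFC5 at 2625 and 2948. In these brightest probe sets RFC1, the large subunit, was the lowest of them at -0.19 and RFC5 the highest at 0.17. The second probe sets of both went the other way, with 0.03 in RFC1 and -0.17 in RFC5. FEN1, the nuclease that trims the flaps of Okazaki fragments, had the highest log2 FC of all replication genes, 0.34, with 1537 on plastic and 1951 on Myogel. Its second probe set went the other way, with 656 and 594. LIG1, the ligase that joins these fragments, had 336 and 373.

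The subunits of RPA, which protects single strands, had log2 FCs of 0.10, -0.07 and 0.09. RPA1 had 3668 on plastic and 3943 on Myogel, RPA2 had 1009 and 962, and RPA3 had 4779 and 5091. In their brightest probe sets the genes for nucleotide supply had log2 FCs between -0.04 and 0.01. Their median of -0.02 became -0.36 with the mean over probe sets, where RRM1 was at -0.36 and TYMS, with its dim probe set, at -1.16. RRM1 and RRM2, the subunits of ribonucleotide reductase, had 9383 and 9137 for RRM1 and 5185 and 5205 for RRM2. TYMS, thymidylate synthase, had 6530.0 on plastic and 6428 on Myogel. MSH6, which recognizes mismatches left by replication, had 3536 and 3088, and UHRF1, which guides the copying of DNA methylation, had 2698 and 3189.8.

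Probe sets of the same replication gene did not always share a sign. In 17 replication genes at least 2 probe sets had a signal at or above 163, and the 2 brightest had opposite signs in 11 and the same sign in 6. The share of opposite signs over other genes was not computed, so these counts have no background. Of the 64 replication probe sets at this signal, 21 were not the brightest of their gene. Their median log2 FC was -0.14, with 13 below and 8 above 0, while the median was -0.06 over 6299 such probe sets of all genes. By FC 1.5, 0 of the 21 were higher and 4 were lower on Myogel, against 2.92% and 5.18% of the 6299.

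These 4 probe sets, named after their values were seen, were also the ones of the 21 outside the range for their signal. The second probe set of MSH6 had 800.2 on plastic and 383 on Myogel, a log2 FC of -1.06, whereas the brightest gave -0.20. In RFC3 the second probe set had 802 and 461 (-0.80), and the brightest gave -0.02. RRM1 had 654 on plastic and 410.2 on Myogel in its second probe set (-0.67), against -0.04 in the brightest. The dimmest of RFC5 had 544 and 346 (-0.65), while its 2 brighter probe sets gave 0.17 and -0.17. All 4 carry the suffix _s_at, given to probe sets that may detect several transcripts, as do 12 of the 21 (57.1%), 38.2% of the 6299 and 14 of the 43 brightest ones, RRM1 among them. Values of some controls differed as well. The ratio of the 3′ to the 5′ control probe set of ACTB was 3.19 on plastic and 6.10 on Myogel, and that of GAPDH was 1.10 and 1.22. The 24 control probe sets for labelling were lower on Myogel by 1.98-fold to 6.74-fold. The 18 for hybridisation, added after labelling, differed by at most 1.43-fold, with 17 lower and a median log2 FC of -0.36. The part of labelling or RNA quality in these differences was not tested.

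**Figure D4:**
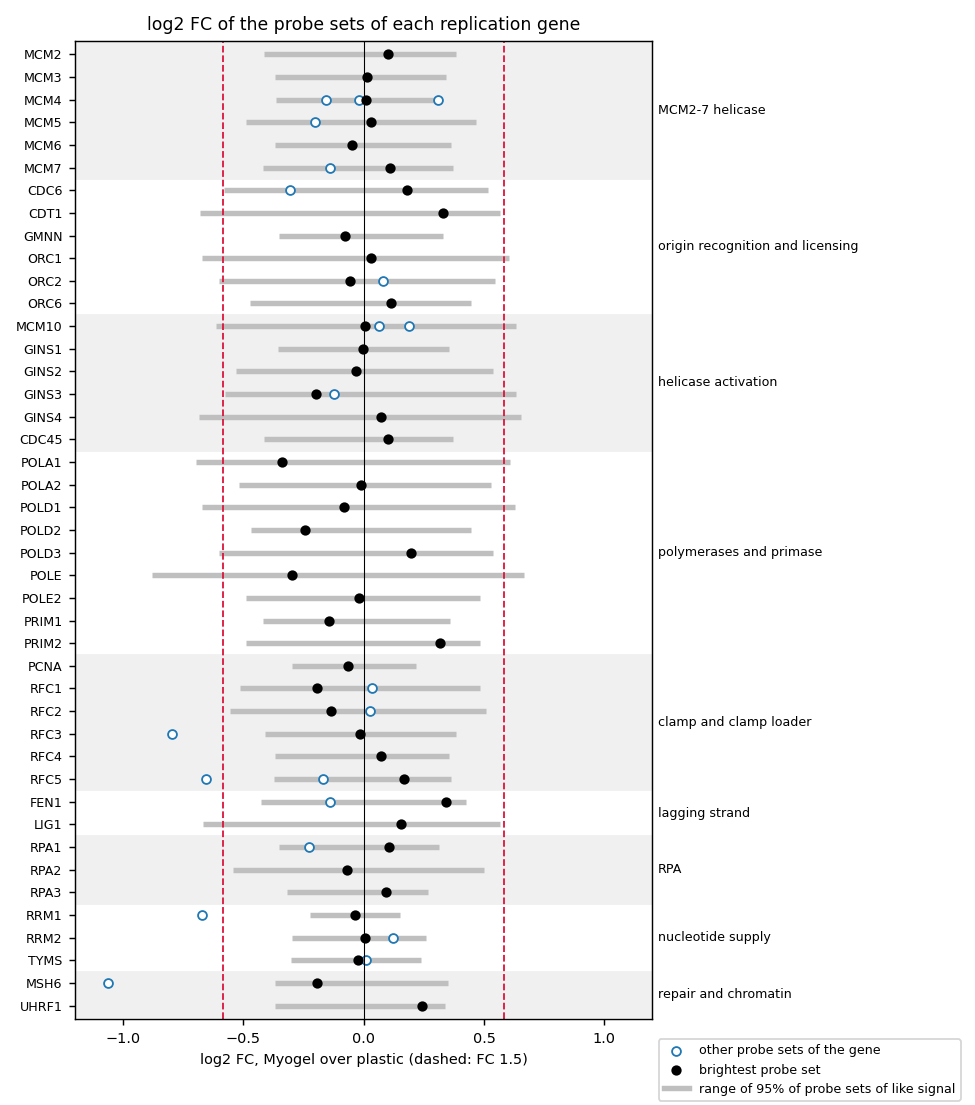
The log2 FC of Myogel over plastic (x axis) for the probe sets of each replication gene with a signal at or above 163. Black points are the brightest probe set, open circles the others, grey bars the range of 95% of probe sets with a signal like that of the brightest, and dashed lines FC 1.5, which open circles of RFC3, RFC5, RRM1 and MSH6 pass on the lower side.

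The remaining 17 replication probe sets were dimmer than 163 and had log2 FCs from -3.45 to 2.90. By FC 1.5, 3 of these were higher and 3 were lower, against 18.9% and 33.6% of the 25237 probe sets below this signal. The dimmest probe set of RFC1 had 7.87 on plastic and 58.7 on Myogel and lay outside its range of -2.34 to 2.18. The dimmest of TYMS, with 12.8 and 1.17, lay inside the wide range of -4.14 to 4.13 at its signal. Such dim values thus gave no direction for the genes.

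Most other genes of S phase also stayed below FC 1.5 in their brightest probe sets. A list of 52 genes for origin firing, fork protection, nucleotide supply, chromatin assembly and E2F control, none of them among the 43, had 50 measured genes. Of these 0 were higher and 1 was lower on Myogel by FC 1.5, against 0.9% and 1.48% of the 9555 genes. The median log2 FC was -0.03, with 19 above and 31 below 0. Over the 9555 genes the median was also -0.03, with 4170 above and 5385 below 0. With FC 1.2 or more 4 were higher and 9 were lower, against 8.77% and 12.9% of the 9555 genes. The gene lower by FC 1.5 was ORC3, a subunit of the origin recognition complex. It had 2735 on plastic and 1722 on Myogel from a single probe set. Its log2 FC was -0.67 in a range of -0.41 to 0.37. The highest log2 FC of the list was 0.45 in DNA2, a nuclease and helicase of the lagging strand, with 529 on plastic and 719.9 on Myogel. The 5 E2F genes of the list had log2 FCs on both sides of 0, each inside the range for its signal. E2F1 had 203 on plastic and 229 on Myogel (log2 FC 0.18), while E2F2 had 142 and 113 (-0.33), E2F3 had 1521 and 1247 (-0.29), E2F7 had 1788 and 1674 (-0.09) and E2F8 had 1247 and 1244 (0.00). Of the E cyclins, which drive the entry into S phase, CCNE1 had 171 and 152 (-0.17) and CCNE2 had 508 and 607 (0.26). CDC7, the kinase that triggers origin firing, had 2800.3 and 2693. Of the 40 genes of the list with a promoter in the RefSeq table, 14 held an E2F match (35.0%), against 5.4% of protein-coding genes.

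**Figure D5:**
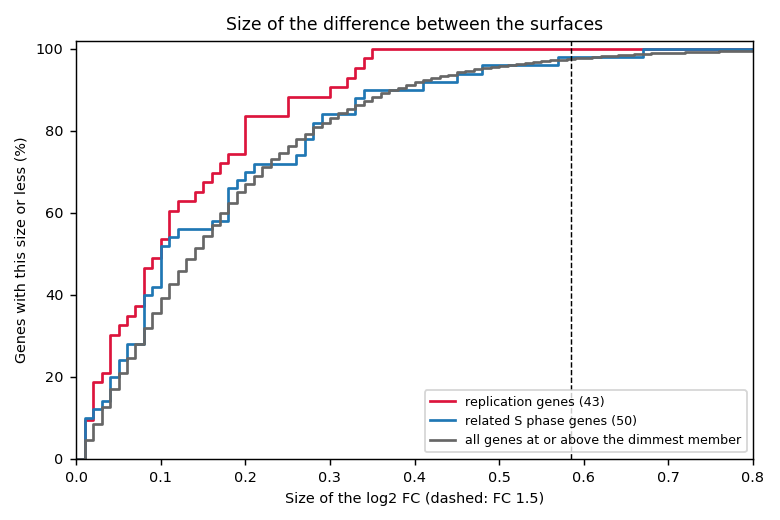
Share of genes (y axis, percent) whose log2 FC has at most the size on the x axis, for the 43 replication genes (red), the 50 related S phase genes (blue) and the 9555 genes at or above the signal of the dimmest replication gene (grey). The red line reaches 100% at 0.35, before the dashed line of FC 1.5, and the blue one after it because of ORC3.

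Of 5 markers of squamous epithelium 3 were measured, the keratins KRT5 and KRT14 and the cadherin CDH1, with values between 3992.5 and 18856 over both arrays. Of the smooth muscle markers of leiomyoma 6 of 6 were measured, 3 above and 3 below 0, and their values summed to 716 on plastic and 713.5 on Myogel, with CNN1 at the lowest value of 1 on Myogel. The 3 endothelial markers summed to 296 and 227, and the 2 blood markers to 192 and 234. The median over the 54613 probe sets was 59.7 on plastic and 52.5 on Myogel, which is a median log2 FC of -0.11. No replication gene in its brightest probe set was at the lowest value of 1.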

How the data were processed

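RNA of 3 wells per surface was pooled, and each pool was measured on 1 array (Affymetrix HG-U133 Plus 2.0). The deposited intensity values came from the dChip software, as run by the authors. Its version and any scaling between arrays are not stated in the paper or the labels. The values are linear, with a lowest value of 1. With 2 arrays, their number limits the precision.

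From these intensities the FC of Myogel over plastic was computed per probe set without further scaling. Of 54613 probe sets, 41091 had 1 gene symbol in the platform annotation, 1801 had several and 11721 are unnamed here. Symbols were updated by Entrez identifier through RefSeq (GRCh38.p14). Named were all 43 replication genes, related genes with FC 1.5 or more or with the highest or lowest log2 FC, and, chosen after their values were seen, the E2F genes, the E cyclins and CDC7. The genes and lists were chosen with earlier results of these data known. The signal limit at the dimmest replication gene, the backgrounds of the other and of the dimmer probe sets and the promoter stretches shown were chosen after the values and matches were seen. One further control ratio is not reported here. The range for a signal spans 95% of the 1000 nearest probe sets.

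Alternatives were quantile normalization, loess centring (span 0.3), median centring, offsets of 16 and 50, other choices of probe set, a signal filter, and thresholds of FC 1.2, FC 2 and 100 linear units. Python 3.11.15 was used, together with pandas 2.3.3, numpy 2.4.6, matplotlib 3.10.9 and statsmodels 0.14.6, and the scripts were tested on simulated data.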

Additional observations from a re-analysis of the deposited data

How the results depend on the processing

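No replicate could be left out and no paired analysis was possible because each surface is 1 array. The counts of 0 replication genes higher and 0 lower by FC 1.5 were the same after quantile normalization, loess centring, median centring, both offsets, the signal filter, FC 2 and FC 1.5 with 100 linear units, and the median log2 FC lay between 0.01 and 0.03 in these, except for 0.11 after median centring, which adds 0.11 to every gene. Of 72 medians of single complexes under the alternatives, 52 moved by at most 0.1 and 20 by more, of which 9 after median centring. With the second brightest probe set the median became -0.18 in the MCM helicase (4 genes), -0.29 in licensing (3) and 0.24 in helicase activation (4). In helicase activation the second probe sets of GINS2 and GINS4 were dim, at 43.3 and 41.5 linear units. The median was -0.14 in FEN1 alone, -0.23 in RPA1 alone and -1.06 in MSH6 alone. Without probe sets ending in _x_at, _s_at or _a_at it was -0.10 in the MCM helicase (4), and with the mean over probe sets -0.07 in RPA. The choice of probe set changed the counts. With the mean over probe sets 1 was higher (RFC1) and 1 lower (TYMS), against 11.6% and 21.4% of all genes, leaving out probe sets ending in _x_at, _s_at or _a_at 1 of 34 was higher (RFC1) and 0 were lower, against 11.2% and 20.7%, and with the second brightest probe set 0 of 23 were higher and 3 lower (RFC3, RRM1 and MSH6), with a median of -0.14, against 12.4% and 22.6% of 10523 genes and a median of -0.12. When any probe set could count, 3 were higher and 6 lower, against 22.1% and 36.2% of all genes. With a difference of 100 linear units as well, chosen after seeing the data, 0 were higher and 4 lower. No share over all genes is available for that setting, so these counts have no background. With FC 1.2, 3 were higher and 2 lower, against 8.77% and 12.9% of the 9555 genes.

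For the related genes, 0 higher and 1 lower became 1 and 7 with the mean over probe sets, against 11.6% and 21.4% of all genes. With the second brightest they were 3 and 4 of 31, against 12.4% and 22.6%. Any probe set gave 3 and 12, against 22.1% and 36.2%, and FC 1.2 gave 4 and 9. They were 0 and 3 of 41 when probe sets ending in _x_at, _s_at or _a_at were left out, against 11.2% and 20.7%. The shares over all genes in these settings include dim probe sets. After median centring and with FC 2, 0 were lower, and the median was 0.078 after median centring. With TTTCGCGC or TTTGGCGC as the E2F motif, 12 of 37 genes held a match (32.4%, against 1.99% of protein-coding genes). In the last 100 bases and after the start, 18 did (48.6%, against 2.82%). The cause of these changes was not tested.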
